A study of Mus musculus with 35 samples.

Results

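The regions described here were sites bound by an SR protein or by NXF1 in protein-coding genes without introns. Clusters of cross-linked positions of SRSF1 to SRSF7 and NXF1 were joined where they lay within 30 nt on the same strand, and a region was kept when its midpoint fell in a protein-coding gene whose annotated transcripts all have 1 exon (GENCODE vM1, mouse genome build mm9). Replication-dependent histone genes, with symbols starting with Hist, and the mitochondrial genome were left out. This gave 1052 regions of 388969 in all, and of 199208 regions with their midpoint in a coding-gene exon. They lay in 364 of 2784 intronless genes (13.1%), whereas 12657 of 19522 genes with introns (64.8%) had an exonic region.

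The regions came from iCLIP, in which ultraviolet light joins protein to RNA in living cells and reverse transcription stops beside the cross-linked base. All groups were mouse P19 embryonal carcinoma cells, a pluripotent line, in stable clonal sublines that express a GFP fusion of 1 protein from a bacterial artificial chromosome. NXF1, SRSF3, SRSF4 and SRSF6 were represented by 3 libraries each, SRSF1 and SRSF5 by 4 each, SRSF2 by 5 and SRSF7 by 6, and GFP with a nuclear localization signal (GFP-NLS) served as the control, with 4 libraries in 1 pooled file. Each protein was studied in its own clonal line, so protein and line cannot be told apart. The design text calls the replicates biological, but nothing used here says that they came from separate cultures, so p-values measure the spread between these libraries, which may be technical.

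Most mammalian transcripts are spliced, and splicing loads proteins onto the mRNA that help it leave the nucleus. SR proteins are splicing regulators that stay on the RNA, and several of them can act as adaptors for NXF1, the export receptor that moves mRNA across the nuclear pore. Intronless mRNAs bypass splicing, and an element in a histone H2A mRNA that binds SRSF3 and SRSF7 is a known example of SR proteins promoting their export. Intronless genes include genes born as retrocopies of spliced mRNAs, immediate early genes, SOX factors and several RNA-binding protein genes.

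Windows of 30 nt around the position with the most tags of 1 protein give examples from the genes on which the results turn. A tag is 1 cDNA at a listed position. The windows were chosen after the values were seen and were read from the mm9 genome on the strand of the gene, 5′ to 3′. The part of the transcript named beside a window is that at the midpoint of its region. The window itself can lie in another part. This may hold for both H2afx windows, the first at the 3′ end of its region and the second near the start of the gene. For the SRSF3 windows capitals mark CNTC (N any base), a pyrimidine motif of the SRSF3 type.
H2afx, coding sequence, chr9:44143302-44143331 (plus): cCCTCcccacaCCTCcacaaaggccctttt
H2afx, second region, chr9:44142822-44142851 (plus): gcagctCTTCtaCCTCgtacactatgtccg
Ubqln2, coding sequence, chrX:149933505-149933534 (plus): tgaactcgcccaaCTTCaccgagCTTCaga
Fbxl14, 3′ UTR, chr6:119431538-119431567 (plus): actttgtagccagtctCCTCtCATCgctgc
Pcbp1, 3′ UTR, chr6:86474598-86474627 (minus): agtttcgtttgggtttttttggctcatgga
The windows of H2afx, Ubqln2 and Fbxl14 each held 2 matches and that of Pcbp1 none, and in Ado, another gene read in the same way but not printed, there was also none. The central position held few of the SRSF3 tags of its region: 6.94% and 6.39% in H2afx, 12.9% in Ubqln2, 5.58% in Pcbp1 and 1.75% (3 of 171 tags) in Fbxl14.

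For SRSF6 capitals mark GANGAN, a purine-rich motif, and for NXF1 they mark the listed position itself. The SRSF6 windows belong to own-locus genes with their highest mean level in SRSF6, and the NXF1 window to the gene model with the most NXF1 tags.
Magel2, coding sequence, SRSF6, chr7:69523062-69523091 (plus): cccagcctgcaccttcgattactccgatgg
Hexim1, coding sequence, SRSF6, chr11:102978838-102978867 (plus): caccacgcagttcctcatgGATGACcacga
Sox11, 3′ UTR, SRSF6, chr12:28025879-28025908 (minus): tttttaatttttatttttaaaaaatttttt
B930036N10Rik, on the U5 RNA, NXF1, chr1:173433200-173433229 (minus): aacaattctgagtcTtacactaattttttg
GANGAN occurred once in the Hexim1 window and not in those of Magel2 and Sox11, and the Sox11 window was made of adenine and thymine alone. The window of Purb, read for SRSF6 but not printed, held no match either. The central positions held 3.20%, 3.28% and 3.43% of the SRSF6 tags of the Magel2, Hexim1 and Sox11 regions, and 15.2% of the NXF1 tags at the U5 site.

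Not every region could be assigned to its intronless gene. A gene was set apart as a copy when its sequence matched a transcript of another gene at 95% identity or more over at least 50% of its length. There were 117 such genes with 217 regions. Of these genes 113 matched a coding gene with introns and 41 a ribosomal protein gene, and in 186 of the 217 regions the surrounding 75-nt window itself matched another transcript. Tags of a copy and of its spliced parent mRNA cannot be told apart there, so values of copies are uncertain. A further 88 regions (8.37%) lay in an exon of another gene on the same strand, and the rest, 753 regions (71.6%) in 226 genes, are called own-locus regions. In genes without a copy, 22 of 835 regions also had a 75-nt window that matched another transcript, and they were not set apart for that. Of the own-locus genes 98 had 1 region, 52 had 5 or more, and Magel2 had the most, with 20.

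The tags were concentrated in few genes. Levels are listed tags per 1000000 listed tags of the library (CPM), averaged over the libraries of each protein and then over the 8 proteins. On this scale own-locus regions held 19.7% of the summed level, copies 36.5% and shared exons 43.8%. B930036N10Rik, an unnamed gene model (chr1:173432927-173434242, minus), alone held 40.0%, at 1384 CPM. Its only region, chr1:173433197-173433311, coincides with a copy of the U5 small nuclear RNA, a core component of the spliceosome, and held 55 of the 68 control tags in all member regions. Tags of this gene model cannot be told apart from tags of the U5 RNA.

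Of the 20 genes with the highest level, 12 were copies, 5 own-locus and 3 shared-exon genes, and together they held 76.3%. Copies of ribosomal protein mRNAs led, with Rplp2-ps1 (matching Rplp2) at 157 CPM, Gm2000 (Rpl35) at 82.4, Gm8730 (Rplp0) at 79.6, Gm8759 (Rpl31) at 76.9, Gm5879 (Rpl3) at 39.3 and Rps26-ps1 (Rps26) at 36.6. Gm9843 matched Fau, which encodes a ubiquitin-like protein fused to a ribosomal protein, and held 83.3 CPM. Gm5611 matched Npm1, the gene of a nucleolar chaperone, and held 82.7 CPM. Further copies were Gm10123 (Ppia, 39.3 CPM), Tpm3-rs7 (Tpm3, 39.1) and Gm10093 (Hdac1, 37.9). Among the shared-exon genes Yy2, a retroposed relative of the transcription factor gene Yy1 that lies in Mbtps2, held 53.7 CPM.

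The top 20 held 5 own-locus genes. H2afx (123 CPM, chr9:44142798-44144154) encodes the histone variant that is phosphorylated at DNA breaks, and Hnrnpa0 (95.4 CPM, chr13:58227240-58229917) an RNA-binding protein of the hnRNP family. Magel2 (84.7 CPM, chr7:69521865-69526526) is an imprinted gene of the Prader-Willi region. Pcbp1 (40.3 CPM, chr6:86474493-86476165) encodes a protein that binds C-rich RNA, and Sox11 (32.1 CPM, chr12:28025562-28027574) a transcription factor of neural development. Ubqln2 (29.9 CPM, chrX:149932775-149936080), which encodes a shuttle factor for ubiquitinated proteins, came next.

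Libraries held 13038 to 4459523 listed tags. Positions below the threshold of their own library are not listed, so these totals are not sequencing depths, and 0 stands for a gene or region without any listed position. The SRSF2, SRSF5 and SRSF6 libraries and SRSF7 replicates 1 to 3 were run in 2013 and the other libraries in 2014. The libraries labelled SRSF2 replicates 2 and 5 carry file headers that name SRSF1. They stayed in the labelled group, and results that turn on them are given without them too. Pluripotency genes carried tags (Lin28a 6724, Pou5f1 2842, Sox2 2205, Utf1 1314 and Nanog 202), while Dppa5a and Zfp42 held 3 and 4, and Myod1, Myog, Hbb-b1, Ptprc and Neurog1 held 0, with 4 on Pax6 and 136 on Tubb3. The control file was small, with 21880 tags in all and 1611 in coding-exon regions. Own-locus regions held 8 of these 1611 (0.497%, 95% Wilson interval 0.252% to 0.977%), in 1 region each of Hnrnpa0, Magel2 and Ccdc8. This share was not below that of the tagged proteins given next, and with 1 pooled file it could not be tested.

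NXF1 carried a larger share of its exonic tags on intronless genes than the SR proteins did. Member regions took 2.67%, 4.68% and 6.47% of the coding-exon tags in the 3 NXF1 libraries. In the 28 SR protein libraries the share ran from 0.248% to 5.55% with a median of 0.725%, so the groups overlapped, and SRSF5 replicate 1 was the highest SR protein library. The means were 4.61% ± 1.90 (SD, n = 3) and 1.21% ± 1.26 (n = 28), a difference of 3.402 percentage points (exact permutation test, two-sided, p = 0.00267, Benjamini-Hochberg adjusted over 5 comparisons 0.00667). The control held 68 of its 1611 coding-exon tags in member regions, a share near the NXF1 mean and above the SR protein mean. With 1 pooled control file this could not be tested. The U5 site made up 60.2%, 67.5% and 67.9% of the NXF1 tags in member regions, and 55 of the 68 control tags. Without it the difference was 1.06 points (exact permutation p = 0.000222, the smallest these libraries allow). Most of this difference lay in copies, which held 1.16% ± 0.490 with NXF1 (n = 3) and 0.282% ± 0.171 with the SR proteins (n = 28). Tags of copies cannot be told apart from those of their spliced parent mRNAs. The difference without the U5 site therefore cannot be assigned to intronless genes as a whole.

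On own-locus regions the difference was smaller and rested on 1 gene. The NXF1 libraries held 0.321%, 0.407% and 0.358% there, a mean of 0.362% ± 0.0432 (n = 3), and the SR protein libraries 0.175% ± 0.0611 (n = 28), a difference of 0.186 points (exact permutation test, two-sided, p = 0.000445). The highest SR protein library, SRSF3 replicate 1 at 0.325%, lay just above the lowest NXF1 library. In the libraries of 2014 alone the difference was 0.171 points (exact permutation p = 0.00357). Hnrnpa0 supplied 27.4%, 47.6% and 47.9% of the own-locus tags of NXF1, and without that gene the means were 0.211% and 0.151% (exact permutation p = 0.0937). The own-locus totals of the NXF1 libraries were 164, 82 and 48 tags, which give 95% Wilson intervals of 0.275% to 0.374%, 0.328% to 0.505% and 0.270% to 0.475%, for counting error only.

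**Figure D1:**
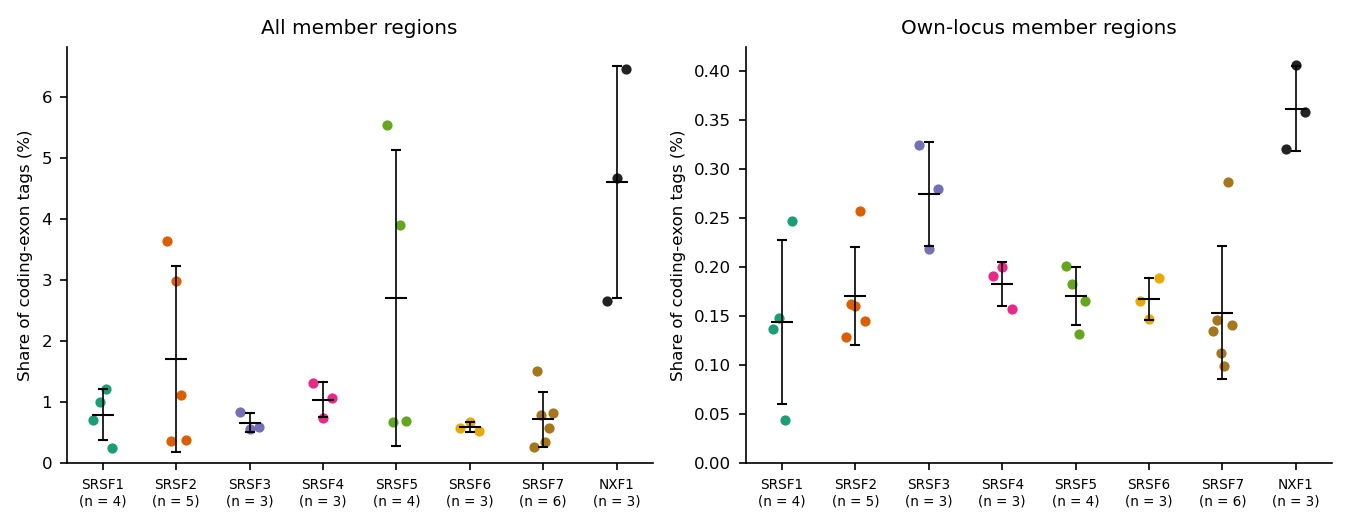
Share of the coding-exon tags of each library (percent, linear axes) that lay in all member regions and in own-locus regions, by protein. Points are libraries and bars the mean ± SD of each protein. All 3 NXF1 libraries sit between 0.321% and 0.407% on own-locus regions, where the SR protein mean is 0.175%.

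SRSF3, which prefers pyrimidine-rich RNA, and SRSF7, its close relative, did not differ detectably in their share over all member regions, and a higher SRSF3 share on own-locus regions rested largely on H2afx. Over all member regions SRSF3 held 0.665% ± 0.159 (n = 3) and SRSF7 0.721% ± 0.450 (n = 6; exact permutation test, two-sided, p = 0.905). On own-locus regions the SRSF3 libraries held 0.325%, 0.219% and 0.280%, and the SRSF7 libraries 0.0999% to 0.288% with a median of 0.138%. The highest SRSF7 value came from replicate 5, which has 9 own-locus tags. The means of 0.275% ± 0.0531 and 0.154% ± 0.0679 differed by 0.121 points (exact permutation p = 0.0357). Without Hnrnpa0 the difference was 0.136 points (exact permutation p = 0.0119, the smallest possible). H2afx supplied 48.6%, 27.3% and 22.1% of the own-locus tags of SRSF3, and without that gene the means were 0.181% and 0.120% (exact permutation p = 0.131). In the libraries of 2014, 3 against 3, it was 0.0983 points (exact permutation p = 0.3, where 0.1 is the smallest possible).

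Among the 7 SR proteins the member share did not pass the test, with 0.333 of its variance lying between proteins (permutation test with 100000 resamples, p = 0.138, adjusted 0.173). SRSF5 had the highest mean, 2.71% ± 2.43 (n = 4), and SRSF6 the lowest, 0.596% ± 0.0798 (n = 3). When SRSF2 replicates 2 and 5 were left out, the between-protein part was 0.451 (permutation p = 0.0482). In SRSF5 replicates 1 and 3 the U5 site made up 90.2% and 90.8% of the member tags, and on own-locus regions the SRSF5 mean was 0.171%.

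H2afx was the gene on which SRSF3 stood furthest apart. SRSF3 replicates 1 to 3 held 718, 299 and 363 CPM there, and no other library reached the lowest of these. The next highest was SRSF7 replicate 3 at 211 CPM, and NXF1 held 135, 78.4 and 120 CPM. SRSF7 had 0 in 2 of its 6 libraries, with a mean of 97.2 ± 95.8 CPM against 460 ± 226 with SRSF3. The gene-level test counts only tags inside the exons of the gene that no other gene shares, and on that count the means were 431 CPM with SRSF3 and 57.0 with SRSF7, 3 of whose libraries were listed at 0. On that count SRSF3 exceeded SRSF7 by a log2 change of 3.61 ± 0.85 (SE; limma, adjusted p = 0.0131, and up to 0.114 without 1 of the SRSF3 libraries). In the region chr9:44143184-44143319 the change was 3.00 ± 0.75 (limma, adjusted p = 0.00398, and at most 0.0294 without any 1 library), and in the region chr9:44142771-44142928, near the start of the gene, 2.23 ± 0.84 (limma, adjusted p = 0.0521).

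Ubqln2 and Fbxl14 also had their highest mean with SRSF3, at lower levels. Ubqln2 held 95.3, 83.6 and 139 CPM with SRSF3, above every other library, of which the highest was SRSF7 replicate 6 at 72.5. SRSF6 followed with a mean of 54.3 ± 18.1 CPM. The difference between SRSF3 and SRSF7 over the gene, 2.05 ± 0.93 on the log2 scale, did not pass (limma, adjusted p = 0.266), though levels differed among the SR proteins (moderated F test in limma, adjusted p = 0.0122). Fbxl14, which encodes an F-box protein of a ubiquitin ligase, held 43.6 CPM on average with SRSF3 and no NXF1 tag, and 1 of 28 other libraries reached its lowest SRSF3 value of 14.7 CPM. Pcbp1 held 53.8, 124 and 138 CPM with SRSF3, but 7 of 28 other libraries reached the lowest of these, and no test on this gene passed.

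Magel2 had its highest mean with SRSF6 and was almost free of tags in the libraries labelled SRSF1 and NXF1. The SRSF6 libraries held 287, 244 and 278 CPM, the SRSF3 libraries 195, 115 and 129, and the highest other library was the one labelled SRSF2 replicate 5 at 257 CPM. NXF1 was listed at 0 in all 3 libraries, and the 4 SRSF1 libraries together held 1 tag. However, the libraries labelled SRSF2 replicates 2 and 5, whose headers name SRSF1, held 189 and 257 CPM, so the level with SRSF1 cannot be settled from these files. In the other SRSF2 libraries, replicates 1, 3 and 4, it was 0, 0 and 61.2 CPM. NXF1 was lower than the SR proteins over the gene (limma, adjusted p = 0.0479), a call that ended in 14 of 31 fits without 1 library, with adjusted p-values up to 0.256. In the coding region chr7:69522736-69523324 SRSF3 exceeded SRSF7 by 2.86 ± 0.77 (limma, adjusted p = 0.00704), and the control held 2 tags in that region, or 91.4 CPM (exact Poisson 95% interval 11.1 to 330.2). The mean there was 66.2 CPM with SRSF3, 127 with SRSF6 and 2.40 with SRSF7, so the SRSF3 level was not above that of the control. Leaving out 1 library raised the adjusted p of this region to at most 0.0693.

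Sox11 and Hexim1 also had their highest mean with SRSF6. Sox11 held 79.2, 84.0 and 104 CPM there, and 2 of 28 other libraries reached the lowest of these, with SRSF2 replicate 4 at 106 CPM the highest. Tags of Sox11 were listed in 1 NXF1 library only, at 29.5 CPM. Hexim1 (chr11:102977639-102981039), which encodes an inhibitor of the transcription elongation factor P-TEFb, held 58.97, 32.0 and 88.3 CPM with SRSF6 and at most 19.96 in any other library, with 0 in all NXF1 libraries. Hexim1 did not reach the minimum level for a test.

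Hnrnpa0 was the own-locus gene with the most NXF1. The NXF1 libraries held 189, 278 and 212 CPM. Only SRSF2 replicate 4 at 211 CPM and SRSF7 replicate 5 at 242 CPM, the latter from 4 tags, reached the lowest of these, and SRSF4 had the highest SR protein mean, 135 ± 61.9 CPM. In the 3′ UTR region chr13:58228287-58228659 NXF1 held 164, 214 and 156 CPM, and no SR protein library exceeded 133. There NXF1 exceeded the SR proteins by 2.05 ± 0.63 on the log2 scale (limma, adjusted p = 0.0289). The control held 2 tags there, or 91.4 CPM (exact Poisson 95% interval 11.1 to 330.2), beside means of 178 CPM with NXF1 and 89.0 with SRSF4, the highest SR protein. Leaving out any 1 NXF1 library ended this call, with adjusted p-values up to 0.166, as did trimmed-mean scaling. In the neighbouring 3′ UTR region chr13:58227959-58228241 the log2 change was 0.17 ± 0.76 (limma, adjusted p = 0.871), and over the whole gene 2.02 ± 0.84 (limma, adjusted p = 0.0839).

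**Figure D2:**
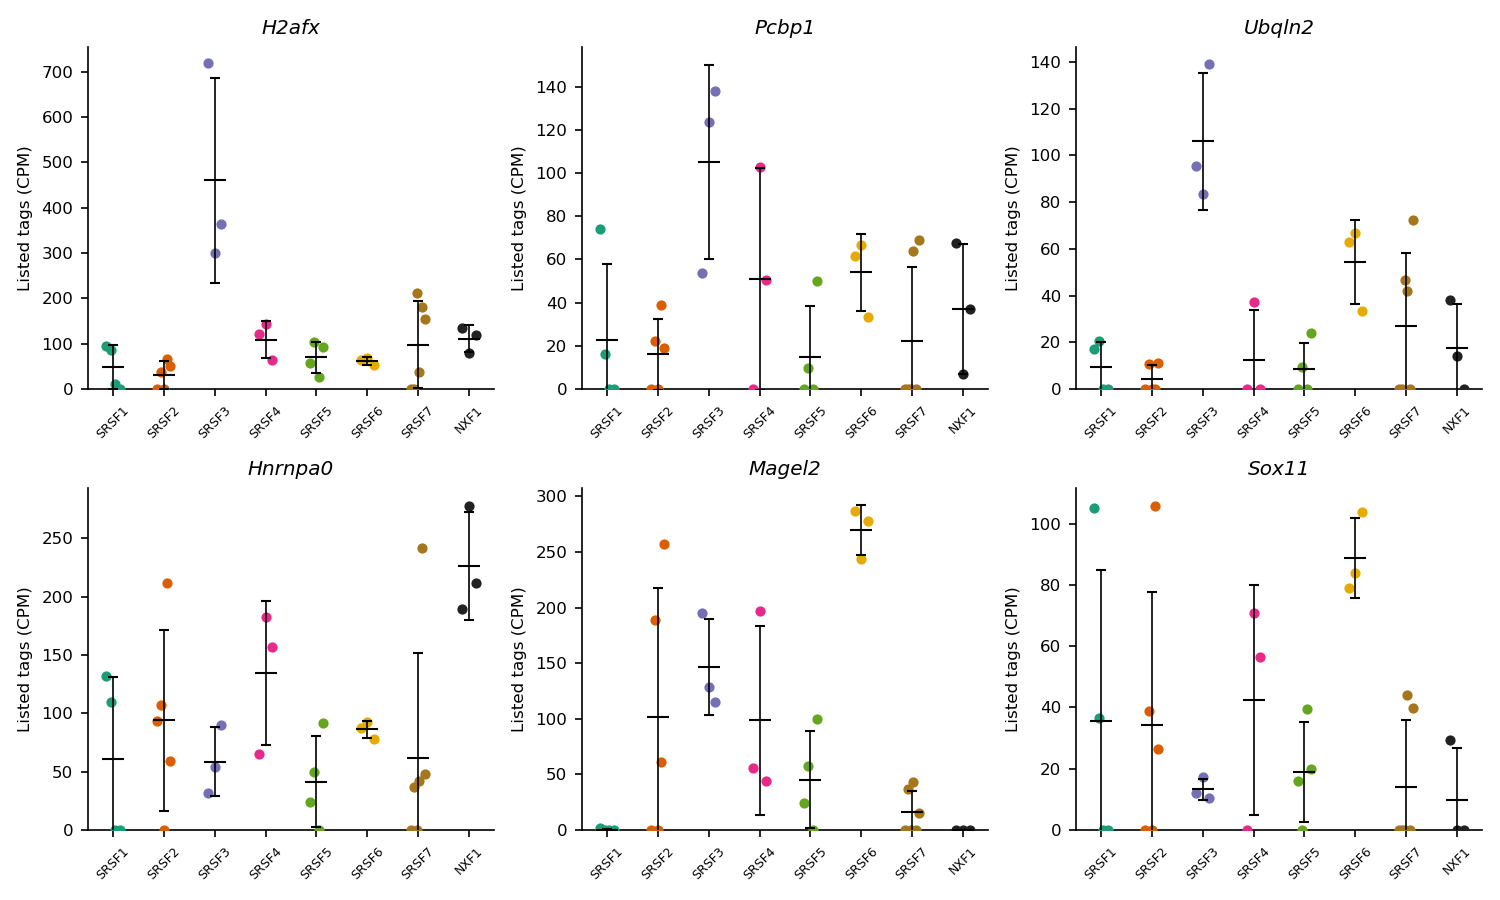
Listed tags (CPM, linear axes from 0) on the 6 own-locus genes with the highest level, by protein. Points are libraries and bars the mean ± SD. SRSF3 libraries are the highest on H2afx and Ubqln2, all 3 SRSF6 libraries reach at least 244 CPM on Magel2, and NXF1 holds 189 to 278 CPM on Hnrnpa0.

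Across the 35 own-locus genes with at least 100 tags, the highest mean belonged to SRSF3 in 16, SRSF6 in 11, SRSF4 in 3, SRSF2 in 2, and SRSF1, SRSF7 and NXF1 in 1 each. In 16 of these genes NXF1 had no listed tag. SRSF3 and SRSF6 are the proteins with at least 409282 listed tags in every library, and the part of library size in this order was not tested. Of the 220 genes whose regions were all own-locus, 134 had a tag in an SRSF3 library, 105 with SRSF6, 105 with SRSF7, 104 with SRSF2 and 37 with NXF1.

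**Figure D3:**
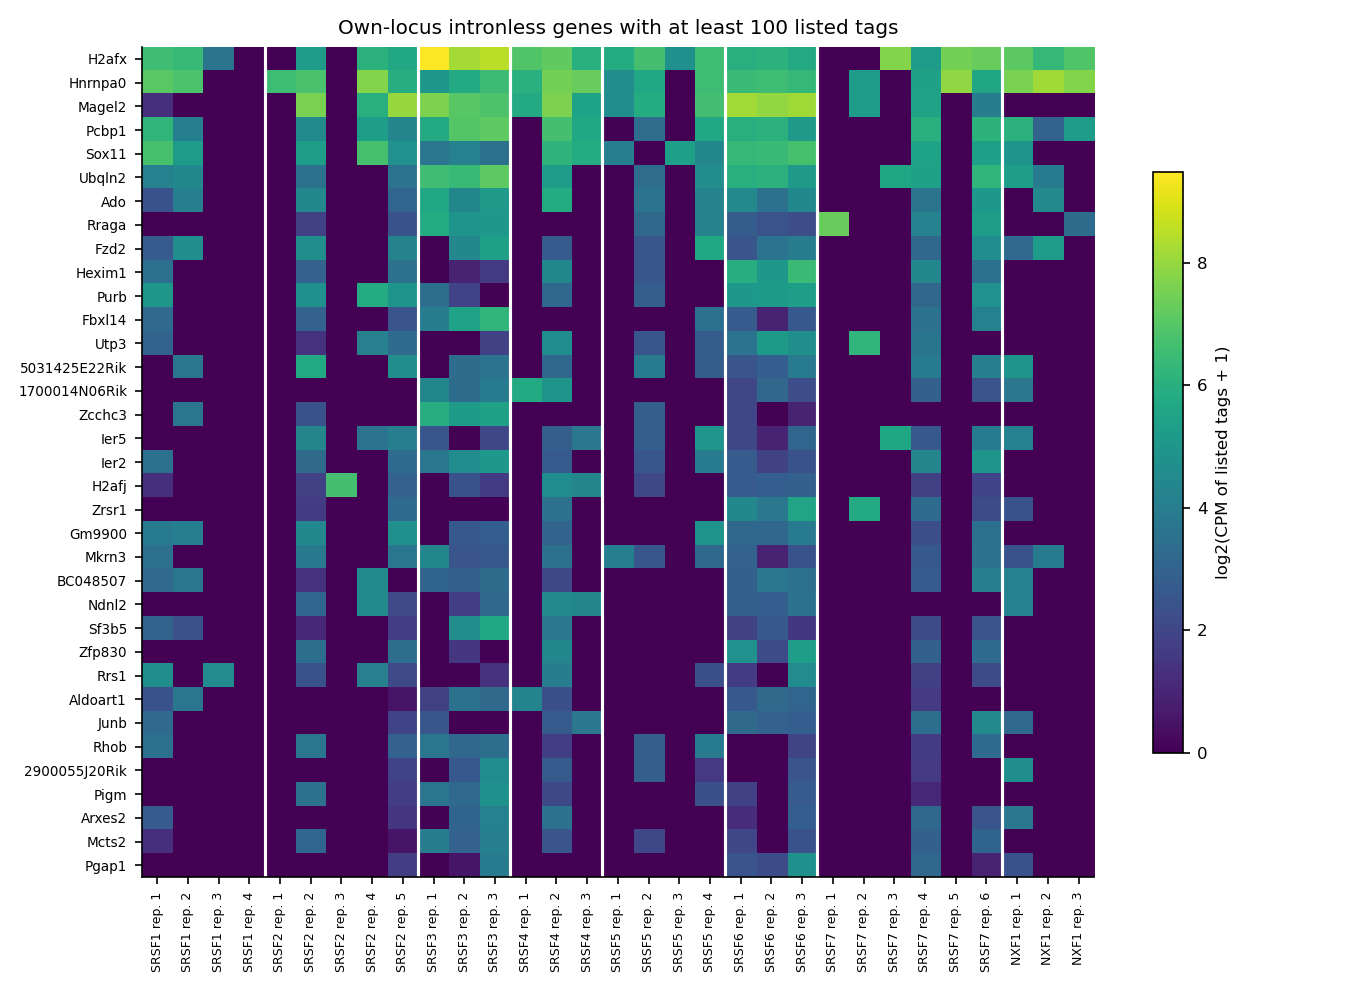
Level of the 35 own-locus genes with at least 100 listed tags (vertical) in each of 31 libraries (horizontal, grouped by protein), as log2(CPM + 1). Dark cells are genes with no listed position. The 3 SRSF3 and 3 SRSF6 columns are filled for most genes, and 16 genes are empty in all NXF1 columns.

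Most own-locus regions were bound by a single protein. A cluster of 1 protein alone made up 61.4% of them, against 42.1% of the regions in exons of genes with introns. SRSF3 clusters lay in 256 of the 753 own-locus regions, SRSF6 clusters in 245, SRSF4 clusters in 212 and NXF1 clusters in 65. Of the 65 NXF1 regions 24.6% had no SR protein cluster, against 10.2% in genes with introns, and SRSF4 was the most frequent partner, in 39. Only 8 own-locus regions carried all 8 proteins. H2afx and Hnrnpa0 had 2 each, and Pcbp1, Sox11, the Wnt receptor gene Fzd2 and BC048507 had 1 each. These shares compare regions of unlike level (median width 15 nt for own-locus and 27 nt for coding-exon regions). For SRSF2 the 192 regions with a cluster equal in number those tagged in replicate 2, whose file header names SRSF1. The 256 regions of SRSF3 and the 245 of SRSF6 likewise equal in number those tagged in replicate 3 of each. The clusters of these 3 proteins may thus come from 1 library each, which was not checked further.

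For the tests across all regions and genes, only well covered members qualified. The minimum was 42.1 CPM in 3 or more libraries plus a sum of 15 tags, which 35 of 1052 member regions passed (25 in copies, 8 own-locus, 2 in shared exons), and 30 intronless genes (23 copies and the 7 own-locus genes H2afx, Hnrnpa0, Magel2, Pcbp1, Sox11, Ubqln2 and Zrsr1). Members that passed are thus the most tagged ones and do not stand for all intronless genes.

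With NXF1 against the 7 SR proteins, 6 of 35 member regions were called, all higher with NXF1, where 11.7% of all 6649 tested regions were called in either direction, 10.1% higher and 1.64% lower. Among them were Hnrnpa0 and the U5 site of B930036N10Rik, where NXF1 held 3457, 4538 and 5418 CPM (log2 change 3.06 ± 0.94, limma, adjusted p = 0.0276). The control held 55 of its 21880 tags at the U5 site. As a share of all tags this was above the mean of every SR protein (219 CPM with SRSF3 to 2020 with SRSF5) and below each NXF1 library. The others were copies. Rpl27-ps3 had 82.5 ± 10.5 CPM with NXF1 (n = 3) and a log2 change of 2.46 ± 0.56, Gm10123 a change of 2.63 ± 0.67, Gm8730 2.10 ± 0.58 and Gm5879 2.01 ± 0.56 (limma, adjusted p from 0.00281 to 0.0147). The median log2 change was −0.03 over the 35 members and −1.03 over all tested regions. Trimmed-mean scaling ended all 6 calls, with 9 members at an unadjusted p under 0.05, whereas scaling by coding-exon totals gave 14, all higher.

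Counted over genes, 4 of 30 intronless genes were called, 3 higher and 1 lower, against 5.53% of all 4975 tested genes (2.67% higher and 2.85% lower). The higher genes were the copies Gm10159 (3.60 ± 0.78), Gm10123 (2.54 ± 0.78) and Rpl27-ps3 (2.44 ± 0.69; limma, adjusted p = 0.00619, 0.0470 and 0.0381), and the lower gene was Magel2. Gm10159 reached the minimum level for a test only in the 3 NXF1 libraries (42.1, 64.1 and 110 CPM). No SR protein library exceeded 34.7 CPM there, so its call follows in part from the filter. The median log2 change was 0.01 over the members and −1.94 over all genes. When any 1 NXF1 library was left out, limma called 0 intronless genes, with 6 to 7 at an unadjusted p under 0.05, and limma-trend on all libraries called 1. Without any 1 NXF1 library Gm10159 was not tested, and it kept its call in the other 28 fits.

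With SRSF3 against SRSF7, 8 of 35 member regions were called, 3 higher and 5 lower with SRSF3, where 23.2% of all regions were called (7.75% higher and 15.5% lower). H2afx and Magel2 were among the higher ones. The lower regions were all in copies. Gm5611 held 7.49 ± 0.188 CPM with SRSF3 and 71.8 ± 51.9 with SRSF7 (−3.13 ± 0.72, limma, adjusted p = 0.00227), and Gm9843, Gm5805 and 2 regions of Tpm3-rs7 were also lower, one of the latter with no SRSF3 tag. The median log2 change was −0.30 over the 35 members and −0.21 over all regions. Trimmed-mean scaling gave 5 higher and 2 lower, and limma-trend 4 higher and 0 lower. The median over all regions was 0.87 and 1.91 in these fits. The split between directions thus turned on the scaling and on the kind of fit.

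Of the 30 genes, 6 were called between SRSF3 and SRSF7, against 2.01% of all genes (0.442% higher and 1.57% lower). H2afx was the higher one. Zrsr1, a retrogene of a U2AF-related splicing factor and imprinted in mouse, was listed at 0 in all 3 SRSF3 libraries. SRSF7 held 11.5 ± 21.5 CPM (n = 6), with tags in 3 of 6 libraries, and the fit called Zrsr1 lower with SRSF3 (limma, adjusted p = 0.0250). Zeros entered this fit as log2 values of −3.16 to 5.26, set by library size. How much of the Zrsr1 call rests on library size was not tested. The copies B020018G12Rik (−4.12 ± 1.14), Gm5611 (−3.14 ± 0.85), Gm9000 (−4.87 ± 1.16) and Tpm3-rs7 (−4.08 ± 1.08) were also lower (limma, adjusted p from 0.0142 to 0.0427). Without any 1 SRSF3 library limma called 0 intronless genes, with 7 to 9 at an unadjusted p under 0.05, and limma-trend on all libraries also called 0. In simulated libraries 12 of 123 gene calls of this comparison were false.

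Among the 7 SR proteins, 29 of 35 member regions differed in level, against 63.4% of all regions, and 23 of 30 genes, against 29.7% of all genes (moderated F test in limma). Own-locus genes among these genes were H2afx, Magel2, Ubqln2 and Zrsr1. The called regions chr14:113714218-113714351 of Tpm3-rs7 and chr7:69525982-69526126 of Magel2 reached the minimum level of 42.1 CPM only in the 3 SRSF6 libraries. Their difference among proteins thus follows in part from the filter. The range of protein means over a region was widest for the U5 site (1801 CPM), followed by Gm5611 (265), H2afx (237 and 181 in its 2 regions), Gm8759 (146), Gm2000 (133), Magel2 (127), Rplp2-ps1 (124 and 116) and Tpm3-rs7 (106). Gm5611 was highest with SRSF6, at 269 ± 39.0 CPM (n = 3), and lowest with SRSF5, at 4.01 ± 8.01 (n = 4). Hnrnpa0 and Pcbp1 did not pass at either level, and Sox11 passed as a region (limma, adjusted p = 0.0437) but not as a gene (0.161).

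By function, the genes with regions fell unevenly over groups of intronless genes. Beside each count, 13.1% of all intronless genes had a region, and whether a gene is expressed in P19 cells enters these shares. Of 8 AP-1 and immediate early genes 7 had regions, with the early response genes Ier5 (5.94 CPM) and Ier2 (5.92) ahead of the AP-1 subunit gene Junb (3.19) and Cebpb (1.14). All 3 SOX genes had regions, Sox4 (1.09 CPM, shared exon) and Sox3 (0.551) far below Sox11. Of 22 genes of POU, forkhead and basic helix-loop-helix factors, which regulate development, 3 had regions, namely Pou3f1, Foxd3 and Pou3f3, at 0.278 CPM or less.

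The list of RNA-binding protein genes had regions in 7 of 13 cases. Hnrnpa0, which also encodes an RNA-binding protein and had a higher level than Pcbp1, was not in this list. Within the list, Purb (9.92 CPM), Zcchc3 (6.54) and Zrsr1 (5.58) came behind Pcbp1. Histone variants outside the Hist clusters had regions in 3 of 5, with H2afj at 5.81 CPM and the linker histone gene H1fx at 1.31. Imprinted and retroelement-derived genes had regions in 10 of 18, where Magel2 was followed by Zcchc3, Zrsr1 and the imprinted Mkrn3 (5.10 CPM). Of 17 genes of signalling receptors and GTPases 10 had regions, led by the Wnt receptor gene Fzd2 (10.3 CPM), the GTPase gene Rhob (3.13), Fzd8 (0.528) and Fzd9 (0.103). Of 6 transcription and chromatin genes 5 had regions, with Irf2bp1 (2.22 CPM), Kti12 (1.24) and Zxdb (0.252) behind Yy2.

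Several groups were almost empty. Regions were found in 2 of 1162 olfactory, taste and vomeronasal receptor genes (Olfr420 and Olfr1491), in 1 of 18 clustered protocadherin genes (Pcdhb17), in 0 of 57 interferon, keratin-associated and late envelope genes and in 0 of 4 heat shock and chaperone genes. Unnamed gene models had regions in 183 of 1005, and 97 of these models were copies. Within the lists of named genes, 5 genes were tested (Sox11, Pcbp1, Zrsr1, H2afx and Magel2). NXF1 against SR proteins gave Magel2 lower, and SRSF3 against SRSF7 gave H2afx higher and Zrsr1 lower. The Zrsr1 call carries the limit on zeros given above. Of the 19 unnamed models tested, 2 were higher with NXF1 and 3 lower with SRSF3 than with SRSF7.

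Within the genes, tags on intronless genes lay more in the 3′ UTR than tags on genes with introns. In 28 libraries with at least 20 member tags the 3′ UTR share averaged 58.1% ± 22.3 on member regions and 19.7% on genes with introns, and it was higher in 28 of 28 (mean difference 38.4 points, permutation test by sign flips, p = 1e-05, the smallest that 100000 resamples give). The U5 site lies in an annotated 3′ UTR and weighs on this mean. On own-locus regions the share was 44.7% against 19.8% in 22 libraries (difference 24.9 points, 22 of 22 higher, permutation p = 1e-05). Without Hnrnpa0 it was 36.0% against 19.9%, higher in 20 of 21 libraries. The 3′ UTR makes up 46.4% of the transcript length of own-locus genes and 38.7% of that of genes with introns, so the own-locus share lay near the share of length with Hnrnpa0 and below it without that gene, and in genes with introns it lay further below.

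NXF1 had the highest 3′ UTR share of the 8 proteins, on own-locus genes and on genes with introns alike. On own-locus regions the 3 NXF1 libraries had 67.7%, 64.6% and 68.8% there, a mean of 67.0% ± 2.14, and 19 SR protein libraries a mean of 41.2% ± 11.8, with SRSF4 replicate 3 the highest at 67.0% (exact permutation test, two-sided, p = 0.0013). On genes with introns the means were 39.0% ± 3.45 and 17.3% ± 5.70 (n = 28; exact permutation p = 0.000222). The difference between the 2 classes of gene within a library was 28.02 ± 1.59 points with NXF1 and 24.4 ± 10.3 with the SR proteins (exact permutation p = 0.553), and it was larger with SRSF5 (33.2), SRSF4 (30.8) and SRSF1 (30.8) than with NXF1. On own-locus regions without Hnrnpa0 the means were 47.3% and 34.1% (exact permutation p = 0.0383). Over all member regions they were 83.5% ± 3.85 and 55.1% ± 24.6 (n = 25; exact permutation p = 0.0589, adjusted 0.0982), and in the libraries of 2014 the difference was 40.1 points (exact permutation p = 0.00275). SRSF3 and SRSF6 had most own-locus tags in regions with their midpoint in the coding sequence, 58.5% ± 10.9 and 57.8% ± 0.889 (n = 3 each), which is 41.4% of the length. H2afx supplied 48.6%, 27.3% and 22.1% of the SRSF3 tags, and its tested regions counted as coding. Some of their tags may lie in a UTR, so the coding share of SRSF3 is uncertain. SRSF7 had the largest 5′ UTR share, 25.5% ± 9.93 in 3 libraries, and NXF1 the smallest, 4.23% ± 3.05. The median SRSF7 region lay at 27.5% of the gene from its 5′ end, and the median NXF1 region at 57.8%.

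**Figure D4:**
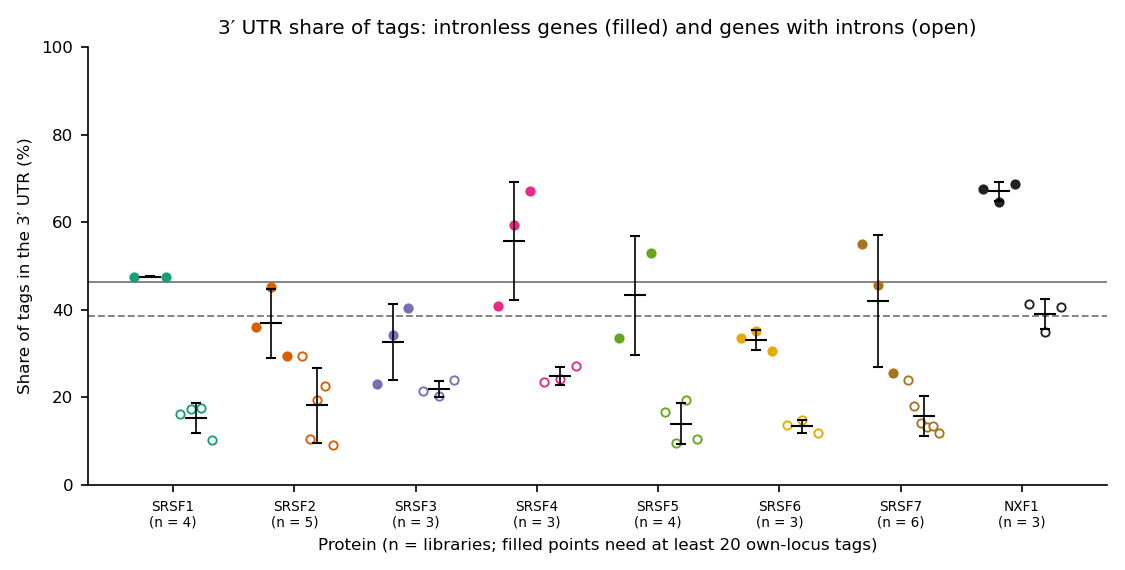
Share of tags in the 3′ UTR (percent, axis from 0 to 100) on own-locus intronless genes (filled points, libraries with at least 20 own-locus tags) and on genes with introns (open points), by protein, with bars for the mean ± SD. The solid and dashed grey lines mark the 3′ UTR share of transcript length, 46.4% and 38.7%. The share on own-locus genes is the higher one in all 22 libraries with both points, and the 3 filled NXF1 points lie between 64.6% and 68.8%.

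The motifs marked in the printed windows were counted over all listed own-locus positions, on the transcript strand, as descriptions with no test. CNTC occurred in the 30-nt window of 54.1% of the SRSF3 positions (53.8% to 60.96% in the 3 libraries), against 28.2% to 41.8% for the other 7 proteins and 33.4% of all 30-nt windows of these genes. The highest other library was one of SRSF4, at 48.5%. In genes with introns the SRSF3 value was 56.2%, so the motif was about as frequent at SRSF3 positions in both classes of gene. GANGAN, which contains GAAGAA, occurred at 18.8% of the SRSF6, 18.2% of the SRSF1 and 2.76% of the NXF1 positions, against 11.8% of all windows. GGAG was found at 26.7% of the SRSF1 positions and in 16.4% of all windows.

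Runs of thymine were more frequent at own-locus regions than in genes with introns. TTTTT occurred in the window at the most tagged position of 16.8% of 667 own-locus regions, against 7.97% of the regions in genes with introns and 5.04% of all windows of own-locus genes. The difference was present in each part of the transcript, with 26.6% against 19.96% in the 3′ UTR, 4.78% against 3.11% in the coding sequence and 11.5% against 3.93% in the 5′ UTR. Whole 3′ UTR windows were not counted apart. By protein the share of own-locus positions with TTTTT ran from 13.6% with SRSF6 to 22.8% with SRSF4, and single SRSF4 libraries spanned 0% to 37.0%.

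**Figure D5:**
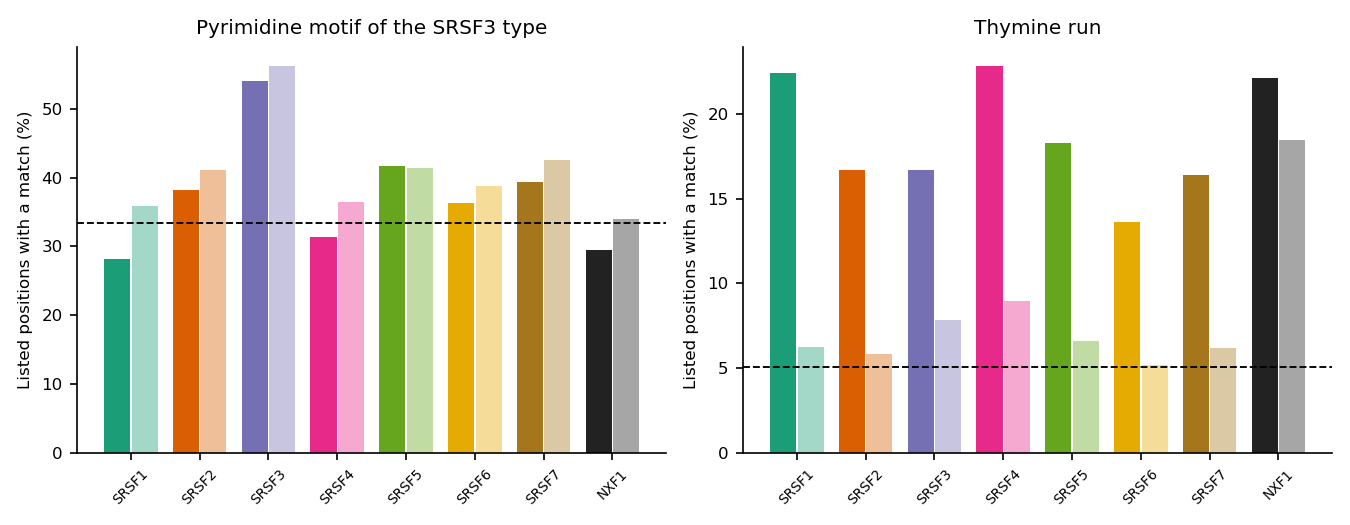
Percent of listed positions of each protein whose 30-nt window holds CNTC or TTTTT. Bars start at 0 and give the share over the positions of all libraries of a protein, full colour for own-locus regions and pale colour for regions in genes with introns. The dashed line is the share of all windows of own-locus genes (33.4% and 5.04%). For CNTC (left) SRSF3 has the tallest bars, at 54.1% and 56.2%, and for TTTTT (right) every full-colour bar is taller than the pale bar beside it.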

How the data were processed

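Per the file headers, the authors counted iCLIP cDNAs on mm9. Each deposited value is the signed cDNA count (tags, the sign giving the strand) at a position with a false discovery rate under 0.05 against 100 permutations within 15 nt, using Ensembl 59 segments. The submitters' processing notes name CASAVA 1.4, and no source used here names the aligner. Deposited totals (13038 to 4459523 tags) are not depths, so no limit is given for unlisted positions.

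Pooled clusters were merged within 30 nt, and tags of the 31 libraries were summed per region and per gene, the latter at exon positions unique to 1 gene. SRSF1 to SRSF7 and NXF1 were compared with limma 3.58.1 (R 4.3.3; voom, total listed tags as library size, Benjamini-Hochberg over everything tested, calls at 0.05) for regions and genes with 42.1 CPM (10 tags in the median library of 237488) in 3 libraries and 15 tags in all. Shares were compared with permutation tests over libraries (Python 3.11.15, scipy 1.17.1), UTR shares only where a library had 20 tags. Zeros entered voom as log2 values of −3.16 to 5.26, depending on library size. Copies were found with BLAST+ 2.17.0. Scripts were tested on simulated data.

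Named genes were the 20 with the highest level, every called member and the up to 4 highest of each functional list, and others were chosen after their values were seen. Some items that this rule covers are not reported here. Members, lists and tests were chosen with earlier results of these data known. The own-locus set, its tests, the 3′ UTR shares of NXF1 on genes with introns and the fit on libraries with at least 50000 tags were added after seeing the data. Alternatives were other scalings, a lower filter, limma-trend, no merging gap, a replicate block, the 2014 libraries, other member sets and leaving out each library.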

Additional observations from a re-analysis of the deposited data

Results flagged for a closer look

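In groups of 4 to 6 libraries, single libraries lay far from the rest of their protein in 17 of 81 groups of values (20.99%), where chance gives about 1 in 20. Several of these values rest on few tags or on a gene listed at 0 in the other libraries of the protein.

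SRSF7 replicate 6 stood above the other SRSF7 libraries on 5 copies. It held 115 CPM on Gm8730, 284 on Gm8759, 37.2 on Gm10123, 91.6 on Gm5879 and 109 on Rps26-ps1, where the next highest SRSF7 library held 36.4, 74.9, 9.87, 19.96 and 23.1 CPM. SRSF7 replicate 2 held 127 CPM on Yy2, against 32.1 in the next library. SRSF7 replicate 5 had an own-locus share of 0.288%, against 0.146% in the next library, and 242 CPM on Hnrnpa0, against 48.1, from 4 tags.

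SRSF2 replicate 4 had the highest own-locus share of its protein, 0.257% against 0.163%, with 128.0 CPM on Rplp2-ps1 (next 36.3) and 27.8 on Gm10123 (next 5.39). Among SRSF5 libraries, replicate 2 held 31.8 CPM on Gm8759 (next 3.99), 12.7 on Gm10123 and 1.59 on Rps26-ps1, and replicate 1 held 16.03 on Gm5611, the last 3 with no tag in the other SRSF5 libraries. SRSF1 replicate 1 was the only SRSF1 library with tags on Magel2 (1.42 CPM) and Gm10093 (68.2 CPM).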

How the results depend on the processing

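In the fits across all regions and genes, the counts of called members given first here were 6, 8 and 29 regions and 4, 6 and 23 genes for NXF1 against the SR proteins, SRSF3 against SRSF7 and the SR proteins among themselves. Trimmed-mean scaling gave 0 NXF1 regions (9 at an unadjusted p under 0.05) and 3 SRSF3 genes, and scaling by coding-exon totals 14 NXF1 regions and 11 NXF1 genes. With these scalings the median change of all tested regions between NXF1 and the SR proteins was −1.36 and 0.21 on the log2 scale, so directions relative to 0 turned on the scaling. With a minimum of 5 tags in all, 600 regions and 308 genes were tested, and 2 NXF1 and 16 SRSF3 regions and 1, 20 and 44 genes were called. limma-trend called 0, 4 and 12 regions and 1, 0 and 2 genes, with 6 NXF1 regions and 10 SRSF3 genes at an unadjusted p under 0.05. The 2014 libraries alone gave 2 NXF1 regions, 9 regions among the SR proteins, and 2, 1 and 5 genes. The causes of these changes were not tested.

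With the replicate number as a block, the SRSF3 counts were 5 regions and 3 genes, and the other 4 counts stayed within 1.5 times (7 and 27 regions, 3 and 20 genes). The numbers did not pair the samples: over 91 pairs of same-numbered libraries of different proteins, the mean correlation of deviations was 0.0168, with 20 pairs over 0.1, and 8 of 31 libraries correlated best with their own number.

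For the shares of coding-exon tags, the difference between NXF1 and SR proteins on own-locus regions without Hnrnpa0 was 0.0602 points (exact permutation p = 0.0937). SRSF3 minus SRSF7 turned from −0.0561 to 0.121 points on own-locus regions and to 0.136 without Hnrnpa0, and it was 0.0617 without H2afx. The part of the variance between SR proteins, 0.333 over all libraries, was 0.451 without SRSF2 replicates 2 and 5 (permutation p = 0.0482) and 0.496 on own-locus regions without Hnrnpa0 (permutation p = 0.0133). The 3′ UTR difference between NXF1 and SR proteins, 28.5 points over all members, passed at 26.2 points without copies, 25.6 without shared exons, 25.8 on own-locus regions, 13.2 without Hnrnpa0 there, 32.7 in libraries with at least 50000 tags and 40.1 in those of 2014.

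Leaving out each library in turn gave 1 to 8, 6 to 9 and 24 to 29 regions and 0 to 5, 0 to 6 and 19 to 24 genes in the 3 comparisons. NXF1 regions fell to 2 and 1 without NXF1 replicates 2 and 3. NXF1 genes fell to 0 without any NXF1 library, where Gm10159 was no longer tested. They fell to 1 or 2 without SRSF3 replicates 1 to 3, SRSF4 replicate 2 or SRSF6 replicate 2. SRSF3 genes fell to 0 without any SRSF3 library and to 2 without SRSF7 replicate 6. The between-protein part of the share ran from 0.237 to 0.457 (passing without SRSF5 replicate 2 or 4), and the 3′ UTR difference of NXF1 from 26.6 to 30.4 points (passing without SRSF2 replicate 1 or 3 or SRSF5 replicate 1 or 3). Of the called regions and genes taken singly, 84 refits without 1 library lost the call and 648 kept it, and 66 refits under the other settings lost it and 123 kept it, with no change of sign.

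The files hold thresholded positions rather than full libraries, the NXF1 own-locus totals are 48 to 164 tags, and genes at 0 enter the fit with values set by library size. In simulated libraries 18 of 131 region calls between SRSF3 and SRSF7 were false.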
